A study of Homo sapiens with 12 samples.

Results

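The genes described here encode 3 ligands of the bone morphogenetic protein (BMP) pathway, BMP4, BMP2 and BMP6, 2 type I receptors, BMPR1A and ACVR1, and 3 type II receptors, BMPR2, ACVR2A and ACVR2B. They were taken by symbol from a table of 20030 genes, and all 8 were listed. Sequenced RNA came from HepG2, a long-established hepatoma cell line of human liver, in 4 groups of 3 libraries: cells given 8HQ and FAC together (8HQ_FAC), FAC, 8HQ, or DMSO, the vehicle. The labels give 10 µM and 6 h for all groups without saying which agent the concentration belongs to, and they spell out neither abbreviation; in iron research FAC usually means ferric ammonium citrate, which supplies iron, and 8HQ usually means 8-hydroxyquinoline, a metal-binding compound that can carry iron through membranes. All groups are 1 cell line, so no other liver cell that could supply ligand was present by design, and the labels are silent on separate cultures within a group. The p-values therefore measure only the spread between these libraries, which may be technical.

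BMP ligands are secreted dimers that bring type I and type II receptors, both serine/threonine kinases, into a complex. The type II receptor phosphorylates the type I receptor, which phosphorylates SMAD1, SMAD5 and SMAD9. These join SMAD4, enter the nucleus and act on target genes such as ID1. In the liver this pathway is a main regulator of HAMP, the gene of hepcidin, the hormone that limits iron export from cells. BMP6 and BMP2 reach hepatocytes mostly from the endothelial cells of the liver sinusoids, and mutations of BMPR2 and ACVR1 are known for pulmonary arterial hypertension and fibrodysplasia ossificans progressiva.

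The members differed in the letters before their start sites, and 6 windows are shown because they hold a match to a motif searched or because they belong to ACVR2A and ACVR2B, a pair of closely related receptors with unlike log2 changes. Each is 250 bases before an annotated start, from RefSeq on GRCh38.p14, written 5′ to 3′ on the strand of the gene, with matches in capitals. They lie at chr14:53955051-53955300 and chr14:53953396-53953645 (both minus strand) for BMP4, chr2:202376077-202376326 (plus) for BMPR2, chr2:157876331-157876580 (minus) for ACVR1, chr2:147844779-147845028 (plus) for ACVR2A and chr3:38453640-38453889 (plus) for ACVR2B.
BMP4, entry 1: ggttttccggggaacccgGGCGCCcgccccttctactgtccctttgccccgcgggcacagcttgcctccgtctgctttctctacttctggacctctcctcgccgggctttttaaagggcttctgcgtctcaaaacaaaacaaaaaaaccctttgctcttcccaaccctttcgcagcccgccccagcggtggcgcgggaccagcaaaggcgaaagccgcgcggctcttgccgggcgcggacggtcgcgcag
BMP4, entry 3: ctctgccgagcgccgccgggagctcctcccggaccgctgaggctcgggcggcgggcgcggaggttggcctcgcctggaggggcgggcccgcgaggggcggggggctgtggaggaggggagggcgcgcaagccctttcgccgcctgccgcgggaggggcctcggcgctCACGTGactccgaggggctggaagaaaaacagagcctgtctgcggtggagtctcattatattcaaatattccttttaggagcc
BMPR2: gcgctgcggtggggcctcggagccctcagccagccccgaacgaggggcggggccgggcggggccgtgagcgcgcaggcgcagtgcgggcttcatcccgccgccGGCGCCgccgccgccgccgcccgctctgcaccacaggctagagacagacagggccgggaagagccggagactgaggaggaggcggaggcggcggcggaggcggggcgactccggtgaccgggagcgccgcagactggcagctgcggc
ACVR1, entry 1: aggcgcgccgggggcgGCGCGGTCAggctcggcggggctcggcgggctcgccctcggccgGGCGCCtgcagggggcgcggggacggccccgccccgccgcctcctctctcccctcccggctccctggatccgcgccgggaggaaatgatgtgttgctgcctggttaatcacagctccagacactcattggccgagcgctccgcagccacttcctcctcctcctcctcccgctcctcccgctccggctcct
ACVR2A: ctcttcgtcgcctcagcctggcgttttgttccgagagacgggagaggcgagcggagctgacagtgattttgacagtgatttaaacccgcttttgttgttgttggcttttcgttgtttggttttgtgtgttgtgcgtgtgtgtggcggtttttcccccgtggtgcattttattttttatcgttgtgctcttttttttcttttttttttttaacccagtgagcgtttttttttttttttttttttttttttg
ACVR2B: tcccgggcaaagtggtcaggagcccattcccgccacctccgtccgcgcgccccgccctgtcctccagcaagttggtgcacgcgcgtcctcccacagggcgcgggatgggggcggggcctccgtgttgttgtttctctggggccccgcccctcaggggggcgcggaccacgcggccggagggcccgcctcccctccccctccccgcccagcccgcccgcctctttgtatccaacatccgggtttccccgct

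RefSeq windows were matched for 7 of the 8 members (all but BMP2), 11 windows in all. Motifs chosen after the expression values were seen were searched on both strands: GGCGCC, known as a SMAD binding sequence of BMP-responsive genes, ACGTG, the core of hypoxia response elements, and TGACNNNGC, the core of antioxidant response elements. GGCGCC was found in 3 windows, 232 bases before the first BMP4 start, 147 before that of BMPR2 and 190 before the first of ACVR1. Of 35116 RefSeq promoter windows of this length 16.4% held it, and of the 12947 windows of tested genes 24.9%. ACGTG was found in 1 window, before the start of BMP4 entry 3, where matches on the 2 strands overlap 83 and 82 bases before it; 18.5% of all windows and 22.6% of those of tested genes held it. TGACNNNGC was found in 1 window, 234 bases before the first ACVR1 start, against 10.9% of all windows and 11.9% of those of tested genes. The window of ACVR2A was 40.8% G and C, and that of ACVR2B 74.0%. Those of BMPR1A, BMPR2 and BMP6 were 47.2%, 79.2% and 64.4%. Entries 1, 2 and 3 were 63.6%, 56.0% and 70.4% for BMP4 and 75.2%, 53.6% and 48.8% for ACVR1. A relation of this share to the log2 changes was not tested. A match is a run of letters and does not show that a factor binds there.

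Values were deposited as FPKM, fragments per length of transcript and per mapped total, a unit meant for comparing levels between genes. BMP4 was by far the most abundant member in every group. It averaged 20.2 ± 1.33 FPKM in 8HQ_FAC cells, 70.4 ± 1.97 in FAC cells, 49.5 ± 0.924 in 8HQ cells and 59.5 ± 1.90 in DMSO cells (SD, n = 3 each). BMPR1A was second in all 4 groups, with a mean of 3.13 FPKM in 8HQ_FAC cells, 8.38 in FAC cells, 7.68 in 8HQ cells and 8.23 in DMSO cells. In DMSO cells BMPR2 came next at 4.02 ± 0.140 FPKM, then ACVR1 at 3.78 ± 0.341, ACVR2B at 3.20 ± 0.00862 and ACVR2A at 3.15 ± 0.212; the libraries of BMPR2 and ACVR1 overlapped, as did those of ACVR2B and ACVR2A. The order was another one in 8HQ_FAC cells, where ACVR2A followed BMPR1A at 2.13 ± 0.139 FPKM and overlapped ACVR1 at 2.001 ± 0.190, ahead of BMPR2 at 1.57 ± 0.167 and ACVR2B at 1.14 ± 0.156. In FAC and 8HQ cells BMPR2 followed BMPR1A, as in DMSO cells. Levels in 8HQ_FAC cells carried a trend on transcript length, given below. The longest transcripts of ACVR2A and ACVR1 (5728 and 3047 nucleotides) are shorter than those of BMPR2 and ACVR2B (11461 and 11821). The part of length in the order in 8HQ_FAC cells was not tested.

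**Figure D1:**
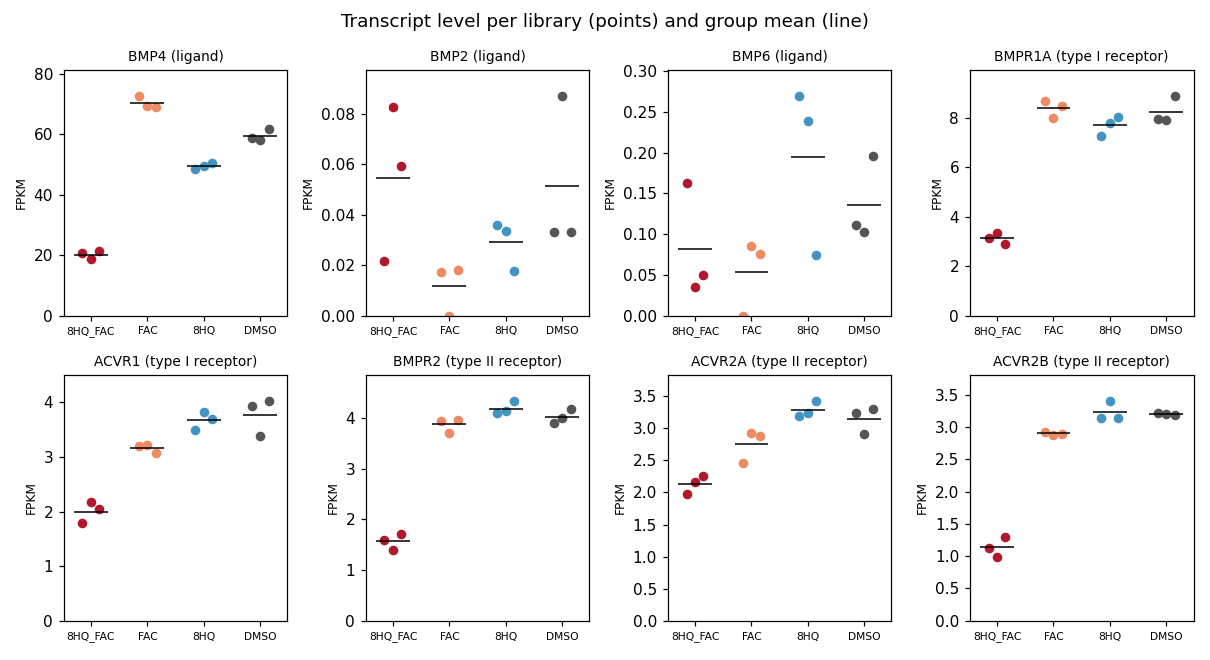
Transcript level in FPKM (vertical axes, each from 0) of the 8 members in each library (points, 3 per group) with the group mean (line). BMP4 and the 5 receptors are lowest in the 8HQ_FAC libraries, and BMP2 and BMP6 stay below 0.3 FPKM in every library.

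The liver ligands BMP6 and BMP2 were close to the floor of the assay. BMP6, the main iron-regulated ligand of the liver, stood at 0.162, 0.0347 and 0.0496 FPKM in the 8HQ_FAC libraries, at 0, 0.0851 and 0.0760 in the FAC libraries, at 0.270, 0.239 and 0.0739 in the 8HQ libraries, and at 0.112, 0.102 and 0.195 in the DMSO libraries. The FAC libraries all lay below the DMSO libraries, and the other pairs of groups overlapped. BMP2, a ligand of the same receptors, stood at 0.0215, 0.0830 and 0.0593 FPKM in the 8HQ_FAC libraries, at 0.0171, 0 and 0.0182 in the FAC libraries, at 0.0358, 0.0336 and 0.0177 in the 8HQ libraries, and at 0.0333, 0.0872 and 0.0333 in the DMSO libraries. Its FAC libraries were the lowest as a group, but they overlapped the 8HQ libraries. Low values of a gene lie on multiples of a step in each library, and in those steps BMP6 reached at most 18 and BMP2 at most 5 in any library. Both missed the filter of at least 1 FPKM in at least 3 libraries, so neither was tested with the others. With no filter, BMP6 was called in none of the 6 comparisons, while BMP2 was called in the interaction alone, with a log2 difference of 0.09 (adjusted p = 0.0477, limma). A value of so few steps is too coarse to order the groups. Markers of sinusoidal endothelium, the usual source of both ligands, were low as well: the 8 genes summed to 0.670 to 0.957 FPKM in 8HQ_FAC libraries, 0.465 to 0.673 in FAC libraries, 0.918 to 1.14 in 8HQ libraries and 0.961 to 1.18 in DMSO libraries, and KDR and CLEC4G were at 0 in all 6 libraries with FAC.

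Of the 8 members, 6 passed the filter, as did 10823 or 54.0% of all genes. Tests were made with limma on log2(FPKM + 1), a scale that understates changes of low genes, in 1 model of all 12 libraries with 2-sided p-values adjusted over all 10823 genes by the Benjamini-Hochberg method. A call means an adjusted p under 0.05.

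8HQ_FAC was set against DMSO to ask what the pair of agents did to the ligands and receptors. All 6 members tested were called lower in 8HQ_FAC cells, where 84.3% of all tested genes were called, 56.7% lower and 27.5% higher. BMP4, a ligand that HepG2 cells make themselves, had 20.5, 18.7 and 21.3 FPKM in the 8HQ_FAC libraries, against 58.8, 58.1 and 61.7 FPKM in the DMSO libraries. The groups lay far apart. BMP4 was thus 66.1% lower, a log2 change of -1.52 (SE 0.04, adjusted p = 6.68e-14). By group means ACVR2B was 64.4% lower, BMPR1A 62.0%, BMPR2 61.0%, ACVR1 47.0% and ACVR2A 32.4%. By that measure ACVR2B, BMPR1A and BMPR2 fell nearly as far as BMP4, although their log2 values of FPKM + 1 are smaller. The median of all tested genes moved by -0.23 in this comparison, and relative to it BMP4 stood at -1.28. In bulk RNA, fewer cells with a transcript and less of it per cell cannot be told apart.

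The type I receptors, which carry the signal to the SMADs, both fell. BMPR1A, the main type I receptor for BMP2 and BMP4, had 3.15, 3.33 and 2.90 FPKM in the 8HQ_FAC libraries, against 7.93, 7.89 and 8.87 FPKM in the DMSO libraries (log2 change -1.16, SE 0.06, adjusted p = 3.66e-11). ACVR1, which pairs with BMP6 and BMP7, had 1.79, 2.17 and 2.04 FPKM in the 8HQ_FAC libraries, against 3.93, 3.39 and 4.02 FPKM in the DMSO libraries (log2 change -0.67, SE 0.06, adjusted p = 9.62e-08). In both genes every 8HQ_FAC library lay below every DMSO library, which was so for 84.2% of tested genes in one direction or the other.

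Among the type II receptors BMPR2 and ACVR2B fell by nearly the same amount and ACVR2A by less. BMPR2, specific for BMP ligands, had 1.60, 1.39 and 1.71 FPKM in the 8HQ_FAC libraries, against 3.90, 3.99 and 4.17 FPKM in the DMSO libraries (log2 change -0.97, SE 0.06, adjusted p = 2.55e-10). ACVR2B, which also binds activins, had 1.13, 0.988 and 1.30 FPKM in the 8HQ_FAC libraries, against 3.21, 3.20 and 3.19 FPKM in the DMSO libraries (log2 change -0.98, SE 0.06, adjusted p = 3.39e-10). Neither gene's groups came near each other. ACVR2A, a second activin and BMP receptor, had 1.98, 2.16 and 2.25 FPKM in the 8HQ_FAC libraries, against 3.24, 2.91 and 3.31 FPKM in the DMSO libraries (log2 change -0.41, SE 0.06, adjusted p = 2.49e-05), and this direction turned to 0.01 under median centring and to 0.08 after length correction. The median of the 6 members was -0.97, beside -0.23 for all tested genes.

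Long transcripts were lower in 8HQ_FAC cells as a class, and most of the receptors are long. Tested genes were put in 4 bins of like size by their longest annotated transcript. In the bin of the longest the median log2 change against DMSO was -0.61 and 81.2% were called lower, while in the bin of the shortest the median was 0.22 and 25.5% were called lower. BMPR1A (longest transcript 11255 nucleotides), BMPR2 (11461), ACVR2B (11821) and ACVR2A (5728) are in bin 4 (the longest), ACVR1 (3047) is in bin 2 and BMP4 (1917) in bin 1. After length correction, that is with the trend on length taken out of each library, BMP4 had a log2 change of -1.61, ACVR1 -0.48, BMPR1A -0.44, BMPR2 -0.24 and ACVR2B -0.24, all still called, and ACVR2A had 0.08 (adjusted p = 0.219). The share of each receptor's change that goes with length was not tested further. Under quantile normalization BMP4 had -1.44, BMPR1A -0.73, ACVR2B -0.72, BMPR2 -0.62 and ACVR1 -0.29, again all called, and ACVR2A had -0.03 (adjusted p = 0.702). Median centring gave BMP4 -1.10, BMPR1A -0.74, ACVR2B -0.56, BMPR2 -0.55 and ACVR1 -0.25, each called. Of all tested genes 2979 were called higher and 6142 lower as deposited; the calls that were higher made up 15.7% of calls with equal sums, 49.8% under quantile normalization, 50.8% after length correction and 63.3% where medians were centred.

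**Figure D2:**
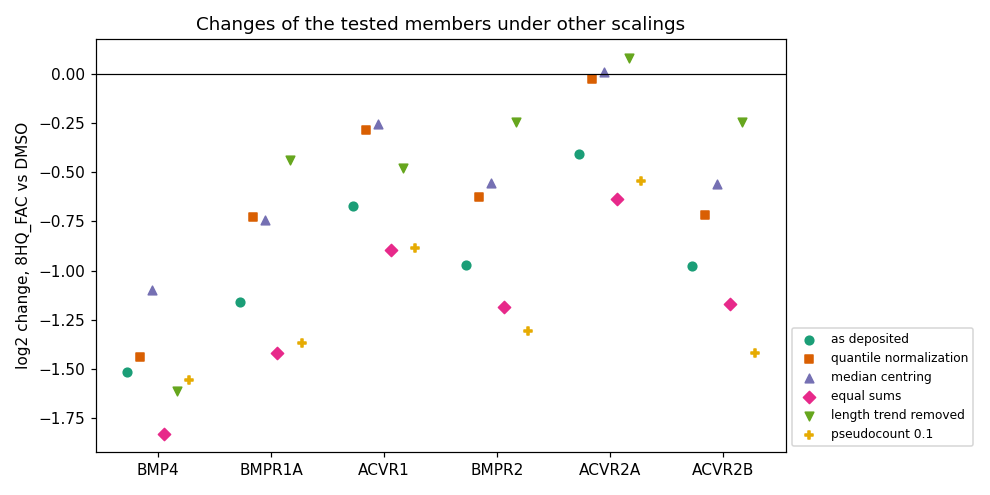
Log2 change in 8HQ_FAC against DMSO (vertical axis) of the 6 tested members as deposited and under 4 other scalings and a pseudocount of 0.1 (symbols). BMP4 runs from -1.83 to -1.10 and is below -1 throughout, whereas ACVR2A lies on both sides of 0.

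In FAC against DMSO 2 of the 6 tested members were called. Of all tested genes 54.0% were called, 29.2% lower and 24.8% higher, and the groups of 61.4% did not overlap. BMP4 rose: it had 72.6, 69.3 and 69.1 FPKM in the FAC libraries, against 58.8, 58.1 and 61.7 FPKM in the DMSO libraries, with no overlap (log2 change 0.24, SE 0.04, adjusted p = 0.000244). ACVR1 fell, with 3.21, 3.21 and 3.08 FPKM in the FAC libraries, against 3.93, 3.39 and 4.02 FPKM in the DMSO libraries (log2 change -0.20, SE 0.06, adjusted p = 0.0183). The ACVR1 call was lost under median centring (adjusted p = 0.0600) and without FAC replicate 3 (0.0580), DMSO replicate 1 (0.0657) or DMSO replicate 3 (0.0801). The other 4 were not called: log2 changes were -0.15 for ACVR2A, -0.11 for ACVR2B, -0.04 for BMPR2 and 0.03 for BMPR1A. The FAC and DMSO libraries of ACVR1 and ACVR2B did not overlap, as for BMP4, and those of ACVR2A, BMPR2 and BMPR1A did. ACVR2A was called with rescaling to equal sums (adjusted p = 0.0317) and without DMSO replicate 2 (0.0363).

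8HQ without FAC changed 1 of the 6 members against DMSO, where 4.91% of all tested genes were called, 2.41% lower and 2.49% higher, and the groups of 26.1% did not overlap. BMP4 fell, to 48.5, 49.6 and 50.3 FPKM in the 8HQ libraries, against 58.8, 58.1 and 61.7 FPKM in the DMSO libraries (log2 change -0.26, SE 0.04, adjusted p = 0.00219). The groups did not overlap. The 5 receptors had log2 changes from -0.09 for BMPR1A to 0.05 for ACVR2A and none was called. The smallest of them, 0.01 for ACVR2B, had a standard error of 0.06.

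With the pair of agents set against each single agent, all 6 members were lower. In 8HQ_FAC against FAC, where 82.9% of tested genes were called, 56.0% lower and 26.8% higher, and the groups of 83.6% did not overlap, BMP4 had a log2 change of -1.75, BMPR1A -1.19, BMPR2 -0.93, ACVR2B -0.87 and ACVR1 -0.47, and ACVR2A had -0.26, which became 0.11 under quantile normalization and median centring and 0.19 after length correction. In 8HQ_FAC against 8HQ, where 84.4% were called, 57.6% lower and 26.8% higher, and the groups of 84.7% did not overlap, BMP4 had -1.26, BMPR1A -1.07, BMPR2 -1.02, ACVR2B -0.99 and ACVR1 -0.64, and ACVR2A had -0.45, which became 0.05 after length correction. By group means against 8HQ, ACVR2B was 64.7% lower, BMPR2 62.5%, BMPR1A 59.3%, BMP4 59.3%, ACVR1 45.5% and ACVR2A 35.1%. BMP4 thus did not fall most by that measure. The ACVR1 call against FAC was lost under quantile normalization (-0.11, adjusted p = 0.121) and median centring (-0.11, adjusted p = 0.128). After length correction the values against FAC were -1.84 for BMP4, -0.51 for BMPR1A, -0.30 for ACVR1, -0.25 for BMPR2 and -0.19 for ACVR2B, and those against 8HQ were -1.34, -0.34, -0.43, -0.28 and -0.24 for the same genes, all called. These comparisons share the 8HQ_FAC libraries with each other and with the one against DMSO.

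The interaction subtracts what FAC did without 8HQ from what it did in its presence, and it was below 0 for all 6 members, where 76.7% of tested genes were called, 53.3% below 0 and 23.4% above it. For BMP4 it was -1.49 on the log2 scale (SE 0.06, adjusted p = 2.28e-11): the ligand was higher in FAC than in DMSO cells but lower in 8HQ_FAC than in 8HQ cells. For BMPR1A it was -1.10 (SE 0.08), for BMPR2 -0.97 (SE 0.08) and for ACVR2B -0.88 (SE 0.08). After length correction BMP4 had -1.57, BMPR1A -0.41, BMPR2 -0.28 and ACVR2B -0.18, the last no longer called (adjusted p = 0.0507). ACVR1 had -0.44 (adjusted p = 0.000403), which was not called under quantile normalization (-0.06) or median centring (-0.07). ACVR2A had -0.31 (adjusted p = 0.00640), which turned to 0.09 under quantile normalization, 0.07 under median centring and 0.16 after length correction.

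**Figure D3:**
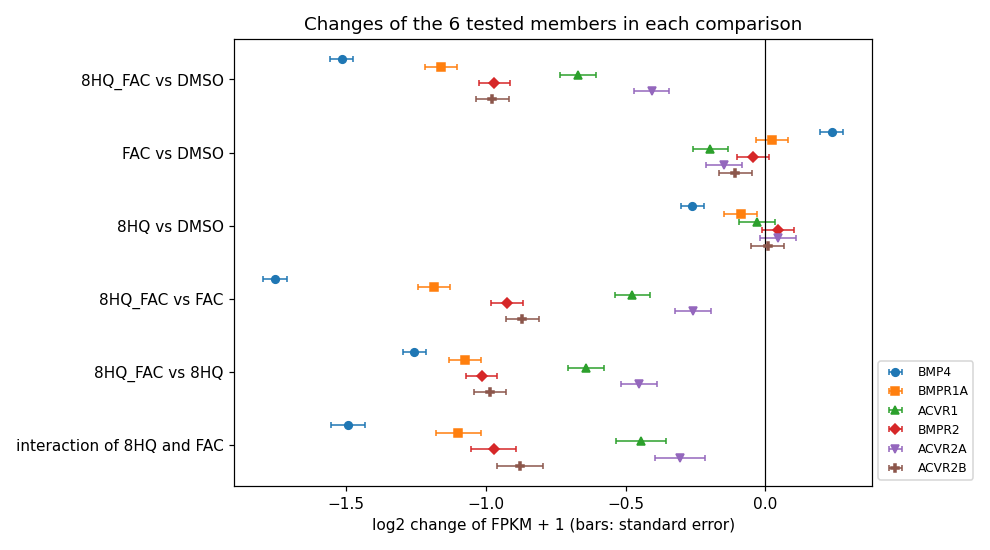
Log2 change of FPKM + 1 (horizontal axis, bars are standard errors) of the 6 tested members in 5 comparisons and the interaction (rows). In the 3 rows with 8HQ_FAC named first and in the interaction, BMP4 lies farthest below 0 on this scale. With a pseudocount of 0.1, ACVR2B (-1.43) and BMPR2 (-1.37) lie below BMP4 (-1.29) in 8HQ_FAC against 8HQ. ACVR2A lies nearest to 0 in those rows and crosses 0 under other scalings. FAC and 8HQ against DMSO lie between -0.26 and 0.24.

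Ratios within a library do not depend on a scale factor of the library, and those given here were computed after the levels had been seen. ACVR2B over ACVR2A was 0.569, 0.457 and 0.576 in the 8HQ_FAC libraries, 1.19, 0.986 and 1.003 in the FAC libraries, 0.983, 1.05 and 0.918 in the 8HQ libraries and 0.991, 1.10 and 0.964 in the DMSO libraries. The 8HQ_FAC libraries did not overlap any other group. ACVR2A made up 44.2 ± 3.02% of the summed FPKM of the 3 type II receptors in 8HQ_FAC cells, 28.9 ± 2.27% in FAC cells, 30.7 ± 0.676% in 8HQ cells and 30.4 ± 1.35% in DMSO cells (SD, n = 3). BMPR1A over ACVR1 averaged 1.57 ± 0.170 in 8HQ_FAC cells, 2.65 ± 0.142 in FAC cells, 2.09 ± 0.0685 in 8HQ cells and 2.19 ± 0.156 in DMSO cells. BMP4 over the 5 receptors summed averaged 2.03 ± 0.143 in 8HQ_FAC cells, 3.34 ± 0.0912 in FAC cells, 2.25 ± 0.0389 in 8HQ cells and 2.66 ± 0.0509 in DMSO cells. All 4 of these ratios had an exact 2-sided permutation p of 0.1 in 8HQ_FAC against each other group, the smallest that 20 arrangements of 3 and 3 allow, so none could pass 0.05. Type I over type II receptors was 1.07 ± 0.139 in 8HQ_FAC cells and 1.16 ± 0.0463 in DMSO cells, which overlapped (exact permutation p = 0.4). Ratios of genes of unlike length still carry the length trend given above.

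**Figure D4:**
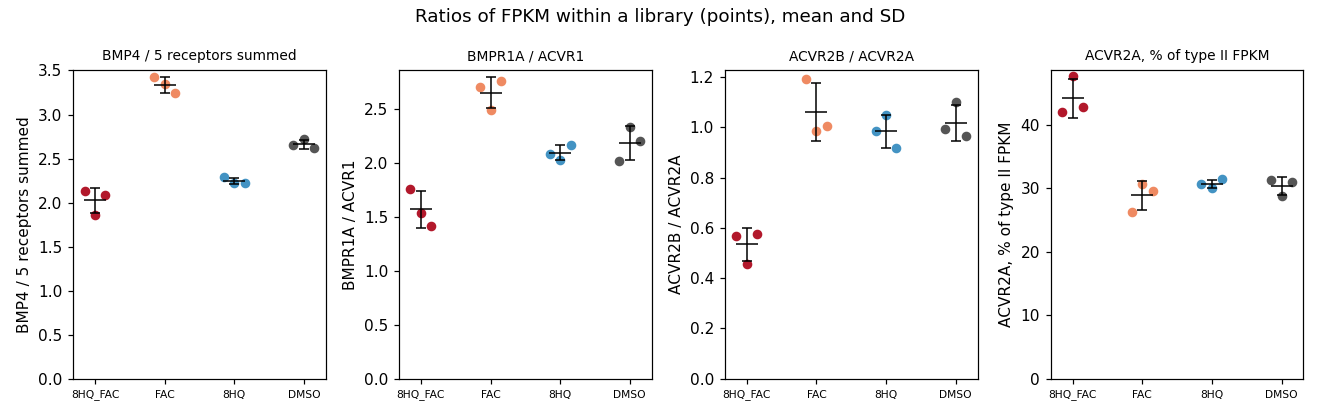
Ratios of FPKM within each library (points), with the group mean and SD (bars), for BMP4 over the 5 receptors, BMPR1A over ACVR1, ACVR2B over ACVR2A, and the percent of type II receptor FPKM that was ACVR2A. In all 4 panels the 8HQ_FAC libraries stand apart from the other 9, above them for the percent of ACVR2A and below them for the 3 ratios.

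The rest of the pathway was followed in lists of its other genes. Of 25 other BMP, GDF and activin ligands 6 could be tested in 8HQ_FAC against DMSO, 2 higher and 3 lower. Of all tested genes 27.5% were called higher and 56.7% lower in that comparison. INHBE, an activin subunit made by the liver, averaged 2.18 FPKM in 8HQ_FAC cells and 9.67 in DMSO cells (log2 change -1.75), and GDF7 fell by 1.06 on the log2 scale. After length correction INHBE had -1.70 and GDF7 -0.37 on that scale, both called. INHBC, another activin subunit of the liver, fell by 0.49 on that scale, a call that was lost under quantile normalization (-0.08, adjusted p = 0.167) and median centring (-0.07, adjusted p = 0.199). INHA, the inhibin alpha subunit, rose by 1.39, and GDF15, a stress-induced hormone, by 0.37, which turned to -0.24 under quantile normalization and was not called with equal sums (0.04) or after length correction (0.02). INHBB was not called as deposited (0.16, adjusted p = 0.0597). It was called higher after median centring (0.57), length correction (0.37) and quantile normalization (0.30), and without 8HQ replicate 2 (adjusted p = 0.0337), 8HQ replicate 3 (0.0474) or DMSO replicate 1 (0.0446).

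Of 15 other receptors and co-receptors 8 were tested, 3 higher and 5 lower in 8HQ_FAC against DMSO, with a median of -0.25. The shares of all tested genes were 27.5% higher and 56.7% lower. ACVR1B, a type I receptor for activin, had a log2 change of -1.40, the co-receptor TGFBR3 -1.07 and RGMB, a BMP co-receptor of the hemojuvelin family, -1.05. After length correction ACVR1B had -1.03, TGFBR3 -0.52 and RGMB -0.68, all called. BAMBI, a decoy receptor, had -0.27, which turned to 0.14 under median centring and was not called under quantile normalization (-0.01). NEO1, which binds hemojuvelin, had -0.22, which turned to 0.23 under quantile normalization, 0.20 under median centring and 0.39 after length correction. The 3 called higher have parts in iron sensing by hepatocytes: TMPRSS6, a protease that restrains hepcidin, had 0.49, HFE 0.29 and TFR2, transferrin receptor 2, 0.31. HJV, the gene of hemojuvelin, reached at most 0.0772 FPKM and was not tested. HFE also had 0.30 in FAC against DMSO, and was not called in 8HQ_FAC against FAC (-0.009, adjusted p = 0.917, limma). In that comparison TFR2 had 0.42 and TMPRSS6 0.35, both called. With rescaling to equal sums TFR2 turned to -0.0012 and HFE was not called (0.05, adjusted p = 0.585).

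Of 20 extracellular antagonists and modulators 7 were tested, 2 higher and 5 lower in 8HQ_FAC against DMSO. The shares of all tested genes were 27.5% higher and 56.7% lower. FST, which encodes follistatin, a trap for activins and some BMPs, averaged 23.4 FPKM in 8HQ_FAC cells, 18.6 in FAC cells, 67.7 in 8HQ cells and 69.8 in DMSO cells (log2 change -1.54 in 8HQ_FAC against DMSO). CRIM1 had -0.81. Others had smaller values whose direction depended on scaling: FURIN, a protease that matures BMPs, had -0.40 (0.02 under median centring, and not called after length correction), FSTL3 -0.40 (0.01 under median centring, and not called under quantile normalization), CHRD, chordin, -0.21 (0.21 under quantile normalization and median centring, 0.18 after length correction) and TWSG1 0.24 (-0.02 with rescaling to equal sums). The CHRD call was also lost without 8HQ_FAC replicate 1 (adjusted p = 0.0673) or DMSO replicate 3 (0.0728), and that of TWSG1 without 8HQ_FAC replicate 3 (0.0714) or DMSO replicate 2 (0.0898). BMP1, which cuts chordin, had 0.49.

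All 17 intracellular transducers and inhibitors were tested, 2 higher and 14 lower in 8HQ_FAC against DMSO, with a median of -0.75. Of all tested genes 27.5% were called higher and 56.7% lower in that comparison. The SMADs that carry the BMP signal, named after their values were seen, were called lower: SMAD1 had -0.89, SMAD4 -0.84 and SMAD5 -0.80. After length correction these were -0.65, -0.17 and -0.21, and under quantile normalization -0.55, -0.40 and -0.37, all called. SMAD9 had -0.36, which turned to 0.06 under median centring and 0.12 after length correction and was not called under quantile normalization (adjusted p = 0.0859). The repressor SKI had -1.10, LEMD3, which binds SMADs at the inner nuclear membrane, -1.09 and TAB1 -0.94. FKBP1A, which holds type I receptors inactive, rose by 0.63. SMAD7, an inhibitor that is itself a target, had 0.20, which turned to -0.08 with rescaling to equal sums, and SMAD6 was not called as deposited (0.12, adjusted p = 0.110). SMAD6 was called higher after length correction (0.56), median centring (0.54) and quantile normalization (0.40) and without DMSO replicate 2 (0.18), and had -0.07 with equal sums.

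**Figure D5:**
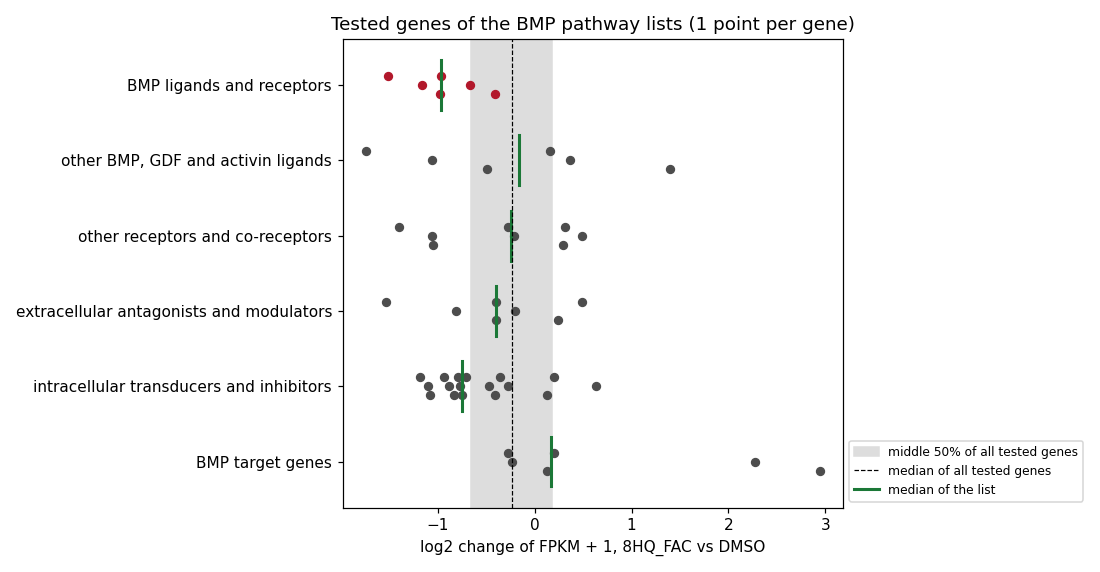
Log2 change in 8HQ_FAC against DMSO (horizontal axis) of each tested gene (points) of the BMP ligands and receptors and of 5 other lists (rows), with each list's median, the median of all tested genes and their middle 50%. The ligands and receptors have a median of -0.97 and all lie below the median of all tested genes, whereas the target genes run from -0.27 to 2.95.

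The target genes went both ways. Of 8 targets 6 were tested, and 3 were higher and 2 lower in 8HQ_FAC against DMSO. The shares of all tested genes were 27.5% higher and 56.7% lower. HAMP had 29.7, 29.05 and 34.4 FPKM in the 8HQ_FAC libraries, 1.02, 0.456 and 0.587 in the FAC libraries, 5.40, 5.25 and 4.85 in the 8HQ libraries and 3.95, 3.29 and 2.34 in the DMSO libraries. ID2 averaged 179 FPKM in 8HQ_FAC cells, 31.1 in FAC cells, 37.7 in 8HQ cells and 36.3 in DMSO cells. Both were highest in the group with the lowest BMP4 and receptor transcripts. ID1, often used as a readout of BMP signalling, averaged 35.9 FPKM in 8HQ_FAC cells, 10.9 in FAC cells, 40.7 in 8HQ cells and 42.4 in DMSO cells, and ID3 averaged 21.7 FPKM in 8HQ_FAC cells, 6.37 in FAC cells, 23.1 in 8HQ cells and 26.4 in DMSO cells. Against DMSO the log2 changes in 8HQ_FAC cells were -0.23 for ID1 and -0.27 for ID3, which turned to 0.18 and 0.14 under median centring. ID3 was not called under quantile normalization (adjusted p = 0.103). The falls of ID1 and ID3 were larger after length correction (-0.56 and -0.60) and with equal sums (-0.55 and -0.59), all called.

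FAC without 8HQ gave lower targets, beside a higher BMP4 and 4 receptors of 5 that were not called. Against DMSO 5 of the 6 tested targets were called lower and 0 higher, with a median of -0.92 beside -0.01 for all tested genes. Of all tested genes 29.2% were called lower and 24.8% higher. ID3 had a log2 change of -1.90, ID1 -1.87, HAMP -1.31, SMAD7 -0.53 and ID2 -0.22, and SMAD6 had 0.11 (adjusted p = 0.186). In 8HQ against DMSO, where 4.91% of all tested genes were called, 1 of the 6 targets was called. It was HAMP, with a log2 change of 0.58 (adjusted p = 0.0186). HAMP was not called with no filter, with a pseudocount of 0.1 or without 8HQ replicate 1, 8HQ replicate 2 or DMSO replicate 3. Transcript level does not measure ligand secretion, receptor protein or SMAD phosphorylation, none of which was analysed here.

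By likeness over the 12 libraries, measured as the root mean square difference of centred log2 values, the genes nearest to BMP4 were TOX3 (0.0718), ALDH1B1 (0.0834) and FNDC3B (0.0879). BMPR1A was nearest to PDCD4, MVB12B and PLPP3, and ACVR1 to DCTN4, SLC35F6 and SSUH2. BMPR2 was nearest to FBXO31 (0.0378), GGA3 and FKBP15, with ACVR2B at place 4 of all tested genes (0.0457). ACVR2B was nearest to PYGO2, USP8 and SLMAP, and ACVR2A to SPICE1, ACTR1A and NOL8. Apart from BMPR2 and ACVR2B, pairs of members lay at places from 171 (BMPR1A from BMP4) to 10376 (BMP4 from ACVR2A). The points share libraries and depth, so these values only describe the pattern.

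Across the series, the FPKM of all genes summed to between 335508 and 346915 in the FAC, 8HQ and DMSO libraries and to between 419275 and 427192 in the 8HQ_FAC libraries. Depth relative to DMSO replicate 1, estimated from the steps between low values, was 0.773 to 0.842 in 8HQ_FAC libraries, 0.918 to 0.983 in FAC libraries, 0.931 to 0.991 in 8HQ libraries and 0.956 to 1 in DMSO libraries. All 8 hepatocyte markers were above 0 in every library. Of 10 leukocyte and Kupffer cell markers 5 were above 0 in 8HQ_FAC libraries, 5 to 8 in FAC libraries, 10 in 8HQ libraries and 8 to 10 in DMSO libraries, and TYROBP and CD3E were at 0 in all 6 libraries with FAC. The summed FPKM of this list had another order, 1970.2 to 1990.5 in 8HQ_FAC libraries, 1177 to 1261 in FAC libraries, 1051 to 1082 in 8HQ libraries and 1176 to 1218 in DMSO libraries. The 6 red cell markers summed to 0.914 to 3.36 FPKM in 8HQ_FAC libraries and 0.106 to 0.531 in FAC libraries. They summed to 2.07 to 41.4 in 8HQ libraries and 0.770 to 15.4 in DMSO libraries. The 8 stellate cell and fibroblast markers summed to 51.6 to 54.7 FPKM in 8HQ_FAC libraries and 46.9 to 51.2 in FAC libraries. Their sums were 35.2 to 36.5 in 8HQ libraries and 35.2 to 35.8 in DMSO libraries. The part of such transcripts in the results was not tested.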

How the data were processed

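RNA sequencing of 12 HepG2 libraries was used, 3 in each of the groups 8HQ_FAC, FAC, 8HQ and DMSO. The authors deposited gene values as FPKM, in a column for each library. Bowtie 0.12.2 and the builds mm8 and mm9 are named per the submitters' processing notes. The builds are of mouse and cannot belong to a human gene table. The sources used here do not name a quantifier or annotation. Coordinates are those of RefSeq on GRCh38.p14. A spreadsheet had turned 27 symbols into dates, which were restored by GeneID; 19741 of 20030 GeneIDs matched RefSeq.

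From the deposited FPKM, log2(FPKM + 1) was taken for the 10823 genes that reached 1 FPKM in 3 libraries or more, and fitted with limma 3.58.1 in R 4.3.3, 1 mean per group, an intensity trend, and Benjamini-Hochberg adjusted p under 0.05 in each of 6 comparisons. The same steps were tested on simulated data. Ratios within libraries were compared with exact permutation tests. Python 3.11.15 was used with pandas 2.3.3 and numpy 2.4.6, and matplotlib 3.10.9 drew the figures.

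Low values lay on steps: 80.5% of the 21391 values under 0.3 FPKM (2224 genes) came out whole to within 0.05, the step being set from each gene's own lowest value. That lowest value is whole by this rule, and the share that would come out whole without steps was not computed. For BMP6 a smaller step was used, with its lowest value above 0 counted as 2 steps. The depth in reads is unknown, so no counting intervals are given.

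The members, lists, comparisons and rule for named genes were chosen with earlier results of these data known. The rule named every member, up to 4 tested genes of each list with the smallest adjusted p in 8HQ_FAC against DMSO, all genes of any count up to 5, 6 readouts (HAMP, ID1, ID2, ID3, SMAD6, SMAD7) and the 3 genes most like each member. Alternatives were median centring, quantile normalization, rescaling to equal sums, removal of a length trend (longest transcript in GENCODE), a pseudocount of 0.1, a filter at 5 FPKM or none, only the groups compared, a replicate block, and leaving out each library.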

Additional observations from a re-analysis of the deposited data

Results flagged for a closer look

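The effect of FAC on each tested member differed with and without 8HQ by the interaction test of limma on the values as deposited. On the log2 scale the differences were -1.49 for BMP4, -1.10 for BMPR1A, -0.97 for BMPR2, -0.88 for ACVR2B, -0.44 for ACVR1 and -0.31 for ACVR2A. Of all tested genes 76.7% passed the same test. ACVR1 was not called under quantile normalization (-0.06) or median centring (-0.07), and ACVR2B not after length correction (adjusted p = 0.0507, limma). ACVR2A turned to 0.09, 0.07 and 0.16 under these 3 settings and was not called. For BMP4 the effect of FAC was 0.24 without 8HQ and -1.26 with it. Groups of 3 libraries are too small for a test of single outlying libraries.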

How the results depend on the processing

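The fall of BMP4, BMPR1A, BMPR2, ACVR2B and ACVR1 in 8HQ_FAC against DMSO kept its direction and call under every alternative in which the gene was tested. The filter at 5 FPKM tests only 2 of the members, and by that construction 2 were called in 8HQ_FAC against DMSO, FAC and 8HQ and in the interaction, and 1 in FAC against DMSO. Of the 7797 genes tested with that filter 6866 were called in 8HQ_FAC against DMSO and 4578 in FAC against DMSO. In FAC against DMSO 1 member was called under median centring, and 1 to 3 when single libraries were left out. Of all 10823 tested genes 6021 were called there under median centring, and 5274 to 5921 when single libraries were left out. Quantile normalization turned GDF15 to -0.24, NEO1 to 0.23 and CHRD to 0.21 in 8HQ_FAC against DMSO, ACVR2A to 0.11 against FAC, and in the interaction ACVR2A to 0.093 and SMAD6 to 0.29 (-0.02 as deposited). Median centring turned ACVR2A to 0.011, BAMBI to 0.14, NEO1 to 0.20, FURIN to 0.020, FSTL3 to 0.013, CHRD to 0.21, ID1 to 0.18, ID3 to 0.14 and SMAD9 to 0.060 against DMSO, ACVR2A to 0.11 against FAC, ID1 to 0.24 and ID3 to 0.34 against 8HQ, and in the interaction ACVR2A to 0.068 and SMAD6 to 0.36. Rescaling to equal sums turned TFR2 to -0.0012, TWSG1 to -0.022 and SMAD7 to -0.076 against DMSO, SMAD6 to -0.16 against FAC and SMAD7 to -0.17 against 8HQ. Removing the length trend turned ACVR2A to 0.085, NEO1 to 0.39, CHRD to 0.18 and SMAD9 to 0.12 against DMSO, ACVR2A to 0.19 against FAC and 0.053 against 8HQ, and in the interaction ACVR2A to 0.16 and SMAD6 to 0.40. The median of all genes in 8HQ_FAC against DMSO was 0.00 under quantile normalization, 0.18 under median centring, -0.50 with equal sums and 0.01 after length correction. The cause was not tested.

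Replicate numbers did not pair the libraries: correlations of same-numbered libraries ran from -0.0756 to 0.0477 over 18 pairs, and 4 of 12 libraries correlated best with their own number. With a replicate block 6 members were called in 8HQ_FAC against DMSO, FAC and 8HQ and in the interaction, 2 in FAC against DMSO and 1 in 8HQ against DMSO, as without it. Of all 10823 tested genes the block gave 9107 calls in 8HQ_FAC against DMSO, 8941 against FAC and 9117 against 8HQ. It gave 8305 in the interaction, 5756 in FAC against DMSO and 450 in 8HQ against DMSO.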
